A study of Mus musculus with 6 samples.

Results

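The tumour necrosis factor (TNF) superfamily, its receptors and the adaptors that carry their signals were followed in RNA of mouse alveolar epithelial type 2 preparations (AT2 cells, which make surfactant). Members were taken by gene name: every gene whose symbol begins with Tnf except 1 that is not analysed here, Traf1 to Traf7, Lta, Ltb, Ltbr, Cd40, Cd27, Tradd and Ripk1. This gave 52 genes with 82 listed transcripts, of 13931 genes in all. They are 13 ligands, 22 receptors, 9 adaptors and 8 Tnfaip genes, named for induction by TNF or for likeness to such a gene. Cd70, which the name rule also lists, has no row in the files and is not analysed here. The study set 3 C57BL/6 mice exposed repeatedly to bleomycin at 1 U/kg, a DNA-cleaving drug that injures the lung (titled mBLM), against 3 C57BL/6 mice exposed repeatedly to PBS (titled sham). Each group has 3 libraries, and the labels name no allele and no other agent. The sources used here do not give age, sex, the route, number and spacing of exposures, the time of harvest or how the cells were isolated. Values are FPKM (fragments normalised to transcript length and to library size), summed over a gene's transcripts, so levels can be set side by side between genes. The number of reads behind a value is unknown.

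TNF superfamily ligands are trimeric proteins, mostly held in the membrane or shed from it, that cluster receptors on the cell they meet. Receptors with a death domain recruit TRADD, RIPK1 or FADD and can lead to NF-kB activation or to cell death, while other receptors bind TRAF proteins directly and feed the canonical and noncanonical NF-kB pathways. Many receptors of the family are costimulators of T and B cells, and others, such as TNF receptor 1 and the lymphotoxin beta receptor, are found on epithelium and stroma. In the injured lung, TNF is made by macrophages and lymphocytes and acts on the alveolar epithelium.

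Several ligands and receptors with low levels in PBS libraries, among them Ltb, Tnf, Cd27 and the BAFF receptor Tnfrsf13c, were higher in bleomycin preparations. Tnfrsf1a, Ltbr and Cd40, which were above 5 FPKM in every library, did not pass the test. Neither did any of the 7 TRAFs, a number too small to set them apart. Tnfaip3 was the highest member with bleomycin, and Tnfaip1 was the one member that fell. Of 45 members that passed the filter on low values, 18 were higher and 1 was lower with bleomycin in limma's moderated test on log2(FPKM + 1) at a Benjamini-Hochberg adjusted p under 0.05. Over all 12326 genes tested, 15.2% were higher and 7.34% lower. The median log2 fold change (bleomycin minus PBS) was 0.68 over the tested members and 0.09 over all tested genes. The filter asked for 1 FPKM in 3 of the 6 libraries, and 12 members met it through bleomycin libraries alone. Those 12 had to be higher with bleomycin, and 11 of them are among the 18, so the count is a description and no measure of how particular the family is. Among the other 33 tested members 7 were higher and 1 lower, and their median log2 fold change was 0.37. By non-overlap of the groups' values, 24 tested members were higher and 4 lower, against 27.2% and 16.4% of all tested genes. The 12 that met the filter through bleomycin libraries alone could not overlap and are among the 24. The other 33 gave 12 higher and 4 lower. After the medians of the libraries were made equal (median over all genes then -0.07) 16 members were higher and 3 lower, and over all genes the split was 1475 and 1412. With quantile normalization (median then -0.08) these were 12 and 2 for the members and 1431 and 1441 for all genes. Without scaling 1871 genes were higher and 905 lower. Leaving out any 1 library gave 15 to 18 members higher and 1 lower.

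**Figure D1:**
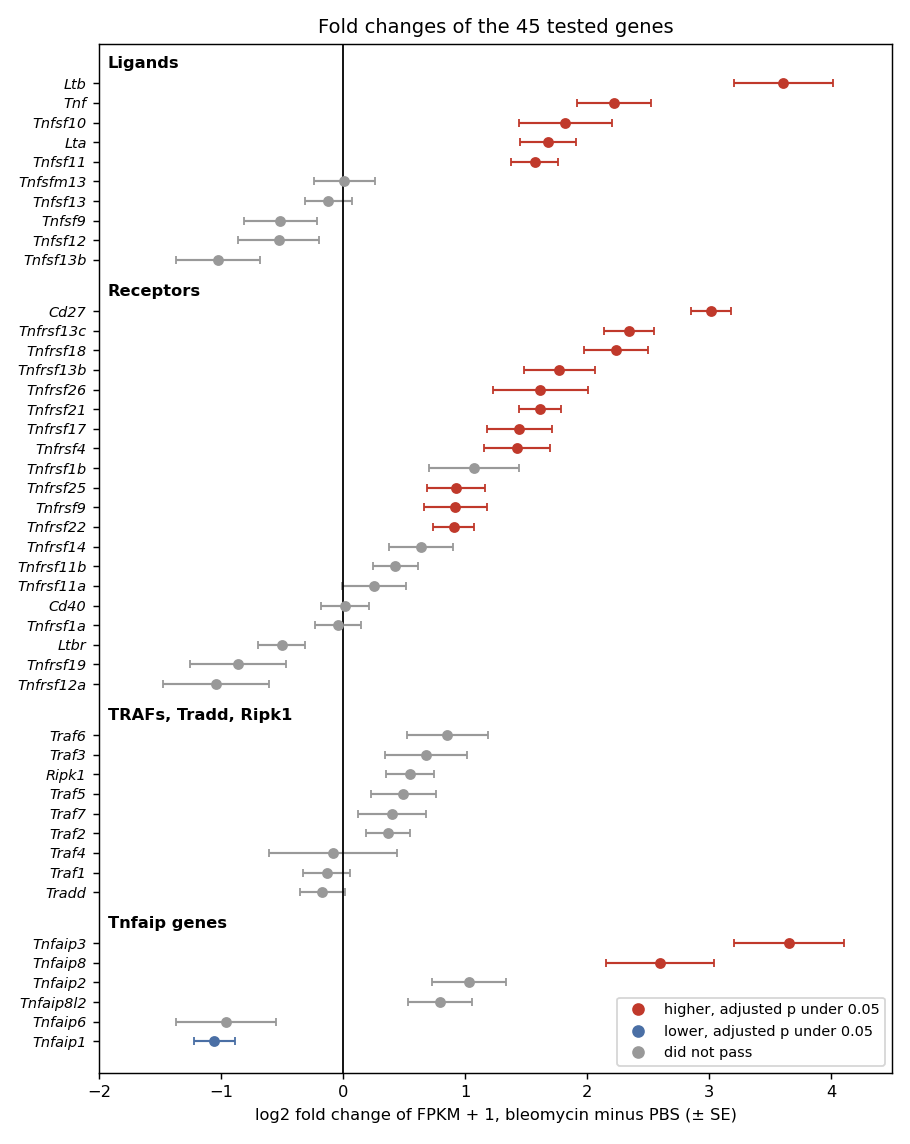
Log2 fold change of FPKM + 1, bleomycin minus PBS, of the 45 tested genes on the horizontal axis, with the standard error as a bar, grouped by role (3 libraries a group). Red points passed as higher, the blue point as lower and grey points did not pass. Tnfaip3 (3.65), Ltb (3.61) and Cd27 (3.01) stand farthest to the right on this scale, and the 9 adaptors are all grey.

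The preparations differed in the markers of other cells, and these values belong beside every result on the members. All 9 AT2 markers were detected in each library and all 9 fell, with a summed FPKM of 3121 to 7241 in bleomycin and 17046 to 25004 in PBS libraries. The call of Sftpc was lost with quantile normalization (-0.53, limma adjusted p = 0.449) and in 5 fits with 1 library left out. All 7 pan-leukocyte markers rose (summed FPKM 1060 to 1551 with bleomycin and 65.1 to 89.2 with PBS), as did all 11 measured T and NK cell markers (243 to 380 with bleomycin and 3.47 to 7.69 with PBS). All 8 B and plasma cell markers rose too (479 to 948 with bleomycin and 16.3 to 28.3 with PBS), together with 6 of 6 tested neutrophil and 8 of 9 macrophage and monocyte markers. All 8 endothelial markers rose, with a sum of 303 to 567 in bleomycin and 37.0 to 42.3 in PBS libraries, and 5 of 7 fibroblast and smooth muscle markers fell. The call of Col1a1 was lost with the replicate block and in 4 fits with 1 library left out. Those of Ptprc and Pecam1 held under every alternative. Among the rest, 4 of 4 tested dendritic cell, 3 of 5 ciliated cell and 2 of 5 erythroid markers rose, and 1 of 8 alveolar type 1 markers fell. The erythroid sum was 637, 1185 and 942 FPKM in bleomycin replicates 1, 2 and 3 and 19.9, 431 and 19.3 FPKM in PBS replicates 1, 2 and 3, so that PBS replicate 2 stood apart. No list was at 0 in either group, although 1 endothelial marker was at 0 in all PBS libraries. In bulk RNA, more cells of a type and more RNA per cell cannot be told apart. The part of these shifts in the results below was not tested.

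**Figure D2:**
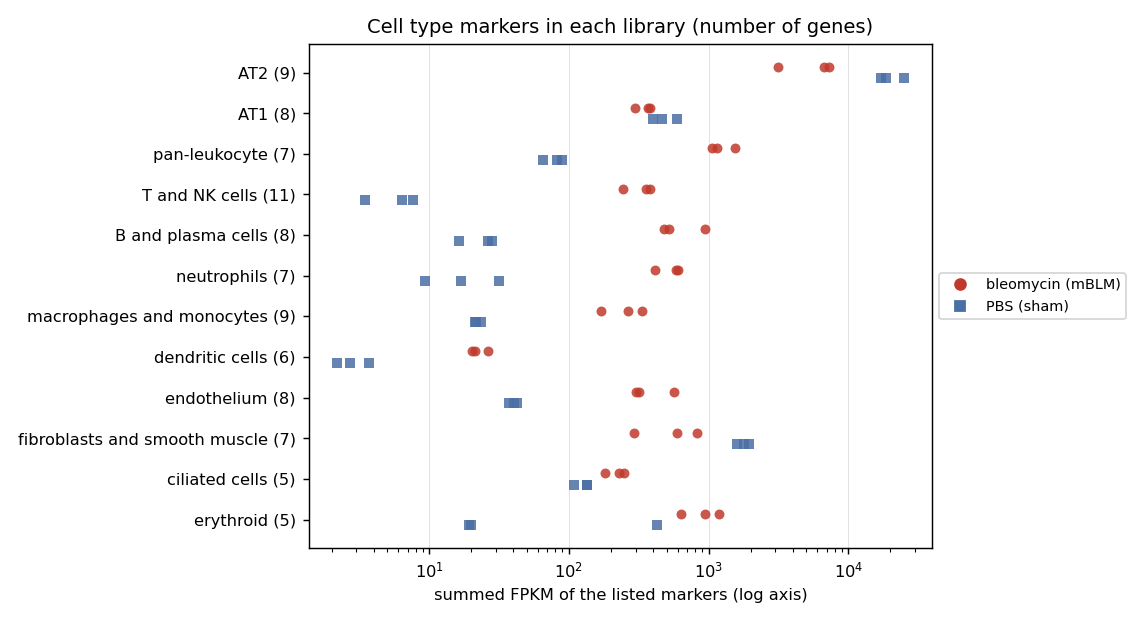
Summed FPKM of the listed markers of each cell type (horizontal log axis, number of genes in brackets) in the 3 bleomycin and the 3 PBS libraries, 1 point a library. The T and NK cell sums lie between 243 and 380 with bleomycin and between 3.47 and 7.69 with PBS, while the AT2 sums lie lower with bleomycin.

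Promoters of members that moved are shown because NF-kB is the factor the family acts through, and because a match to its site is a property the name rule did not use. RefSeq start sites (GRCm38.p6, the assembly of mm10) were matched by symbol for 44 of the 52 members, and the 250 bases before each start were searched on both strands for the NF-kB consensus. It was found for 8 of the 44 members (18.2%) and for 8.23% of all 27025 genes with a window. Of the other motifs searched in these windows, the GC box (GGGCGG) was found for 24 members (54.5%) and 35.4% of all genes, and the TATA box (TATAAA) for 6 members (13.6%) and 14.3% of all genes. These shares are descriptions, and nothing particular to NF-kB is drawn from them. The 8 with the NF-kB consensus are Tnfaip3 and Ltb, which rose, Tnfrsf9 and Tnfrsf25, whose calls as higher were lost in 10 of 14 and 9 of 15 alternatives, Traf3 and Tnfaip2, which did not pass, and Tnfrsf8 and Tnfaip8l1, which were below the filter. A match is no proof of binding, and windows without one (those of Tnf and Lta among them) say nothing beyond these bases. The first 2 below are from genes that rose, the third is from Tnfrsf9 and the last is from a gene that did not pass. Each is written 5′ to 3′ on the gene's strand, with the matches in capitals and overlapping matches joined, at chr10:19015411-19015660 (minus strand), chr17:35194257-35194438 (plus), chr4:150927749-150927998 (plus) and chr12:111166120-111166369 (plus). That of Ltb ends where the deposited transcript begins.
Tnfaip3: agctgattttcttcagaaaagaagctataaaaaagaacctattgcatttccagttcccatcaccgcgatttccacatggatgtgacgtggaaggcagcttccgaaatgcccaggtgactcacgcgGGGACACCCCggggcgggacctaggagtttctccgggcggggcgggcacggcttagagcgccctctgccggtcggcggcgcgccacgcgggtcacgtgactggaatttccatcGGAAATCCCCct
Ltb: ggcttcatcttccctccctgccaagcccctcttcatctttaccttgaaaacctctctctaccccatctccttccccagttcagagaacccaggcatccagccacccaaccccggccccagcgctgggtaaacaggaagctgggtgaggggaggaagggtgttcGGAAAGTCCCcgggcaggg
Tnfrsf9: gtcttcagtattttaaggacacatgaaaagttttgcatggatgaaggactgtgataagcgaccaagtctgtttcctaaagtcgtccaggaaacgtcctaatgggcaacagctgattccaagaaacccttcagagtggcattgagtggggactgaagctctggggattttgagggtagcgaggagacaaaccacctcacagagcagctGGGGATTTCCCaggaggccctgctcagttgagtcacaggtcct
Traf3: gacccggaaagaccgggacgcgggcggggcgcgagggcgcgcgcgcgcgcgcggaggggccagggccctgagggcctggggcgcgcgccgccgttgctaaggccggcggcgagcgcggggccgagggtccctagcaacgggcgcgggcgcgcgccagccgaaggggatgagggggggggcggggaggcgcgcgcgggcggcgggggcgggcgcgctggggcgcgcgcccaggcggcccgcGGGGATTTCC
In Tnfaip3 the matches lay at 2 places, the nearer one starting 12 bases before the RefSeq start, and the matches of Ltb, Tnfrsf9 and Traf3 began 87, 43 and 10 bases before theirs.

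Of 10 tested ligands 5 rose and none fell, against 15.2% higher and 7.34% lower over all tested genes. At an unadjusted p under 0.05, 5 were higher and 1 lower. Of the 5 that rose, 3 (Tnf, Lta and Tnfsf11) were under 1 FPKM in every PBS library. These met the filter through bleomycin libraries alone, so they had to be higher. Ltb, lymphotoxin beta, which anchors lymphotoxin alpha in the membrane of lymphocytes (ENSMUSG00000024399.5, mm10 chromosome 17, 35194439 to 35196320), measured 52.5, 20.8 and 31.0 FPKM in bleomycin replicates 1, 2 and 3 and 0.768, 2.24 and 2.60 FPKM in PBS replicates 1, 2 and 3. Every bleomycin library lay above every PBS library, and the change was 3.61 ± 0.41 on the log2 scale (± SE, limma adjusted p = 0.00156). It made Ltb the second highest member in the bleomycin mean. Tnf itself, the founding cytokine (chromosome 17, 35199381 to 35202007), measured 11.0, 4.64 and 6.50 FPKM with bleomycin and 0.503, 0.965 and 0.715 FPKM with PBS. Its groups did not overlap either, and it rose by 2.22 ± 0.30 (adjusted p = 0.00334). Lta, the secreted lymphotoxin, measured 4.65, 2.48 and 2.65 FPKM with bleomycin and 0.190, 0.370 and 0.347 FPKM with PBS, a rise of 1.68 ± 0.23 (adjusted p = 0.00348). In all 3 genes bleomycin replicate 1 was the highest and bleomycin replicate 2 the lowest of the bleomycin libraries. The summed FPKM of T and NK cell markers was 380, 359 and 243 and that of B and plasma cell markers 948, 522 and 479 in bleomycin replicates 1, 2 and 3. In the same order it was 1551, 1060 and 1142 for pan-leukocyte and 607, 414 and 584 for neutrophil markers. Macrophage and monocyte markers summed to 267, 170 and 336 and dendritic cell markers to 26.4, 21.4 and 20.1. Any part of these cells in the order of the 3 genes was not tested.

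Tnfsf11, the ligand RANKL of osteoclast and lymph node development, measured 3.17, 2.31 and 1.80 FPKM in bleomycin libraries and 0.147, 0.145 and 0.131 FPKM in PBS libraries. The PBS values were low and close together, and the gene rose by 1.57 ± 0.19 (limma adjusted p = 0.0022). Tnfsf10, the death ligand TRAIL, measured 2.45, 3.93 and 6.11 FPKM with bleomycin and 0.0988, 1.24 and 0.118 FPKM with PBS. It rose by 1.82 ± 0.38 (adjusted p = 0.018), but did not pass without PBS replicate 1 (0.0632), PBS replicate 3 (0.0632) or bleomycin replicate 2 (0.0542). Tnfsf8 and Tnfsf14, ligands of CD30 and of the herpesvirus entry mediator, were below the filter. Tnfsf8 was at 2.96, 2.29 and 0.311 FPKM in bleomycin libraries and at 0, 0.0532 and 0.0815 FPKM in PBS libraries, and Tnfsf14 at 0.864 to 1.51 FPKM with bleomycin and 0.0591 to 0.326 FPKM with PBS, neither with overlap. Tnfsf15, also below the filter, stayed under 1 FPKM in every library.

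None of the 5 ligands with a PBS mean of 5 FPKM or more passed the test. The PBS level used to sort them is part of the fold change, so this is a description. Tnfsf12 (TWEAK), the highest ligand in PBS libraries, measured 15.1, 25.3 and 37.1 FPKM with bleomycin and 44.7, 30.5 and 32.7 FPKM with PBS, with overlap (-0.53 ± 0.33, limma adjusted p = 0.301). Tnfsf13b (BAFF), a survival factor of B cells, measured 4.01, 2.88 and 3.92 FPKM with bleomycin and 6.68, 5.69 and 14.8 FPKM with PBS. The groups did not overlap, and the change was -1.03 ± 0.35 (adjusted p = 0.0779), which passed with equal medians (0.0487), with quantile normalization (0.0432) and with library weights (0.0442). Tnfsf9, a T cell costimulator, averaged 4.49 ± 1.14 FPKM with bleomycin and 7.06 ± 2.95 with PBS (SD, n = 3 each, limma adjusted p = 0.265). Tnfsf13 (APRIL) averaged 6.55 ± 1.34 FPKM with bleomycin and 7.15 ± 0.752 with PBS. The read-through gene Tnfsfm13 spans Tnfsf12 and Tnfsf13 on the same strand, so the split of reads among these 3 genes is uncertain.

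**Figure D3:**
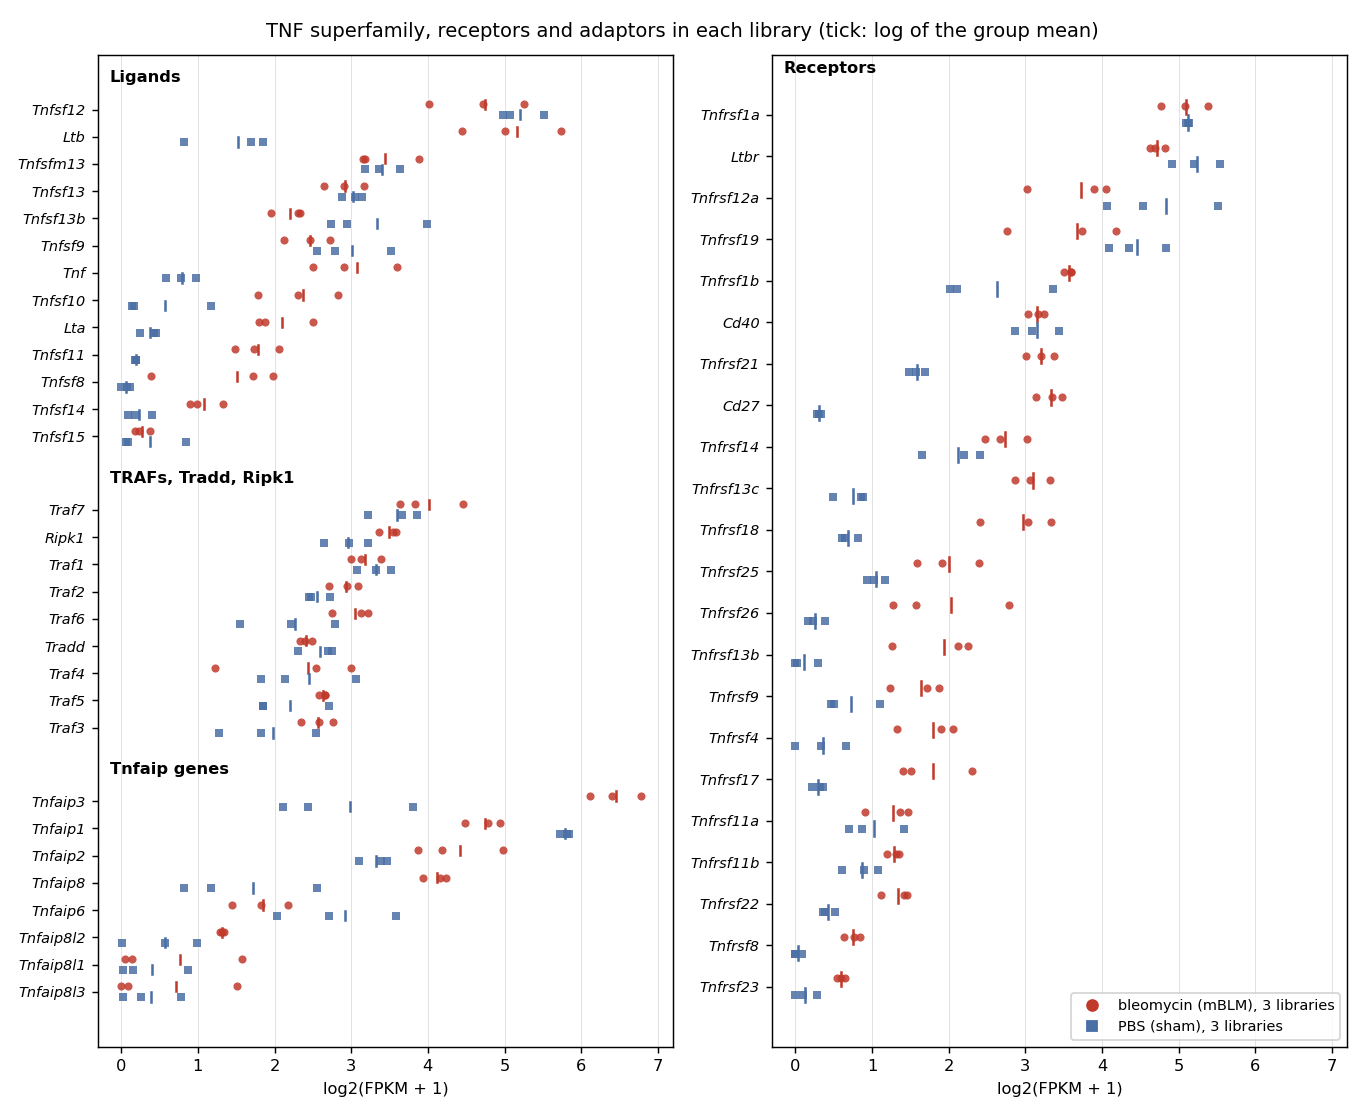
log2(FPKM + 1) of all 52 genes (horizontal axis) in each of the 3 bleomycin libraries (red circles, upper row of a gene) and the 3 PBS libraries (blue squares, lower row), ordered within each role by the mean of all libraries. Ticks mark the log of the group mean. Tnfrsf1a, with a mean of 33.2 FPKM with bleomycin and 33.7 with PBS, leads the receptors, and Cd27 has the largest fold change on this scale (3.01) among the tested receptors.

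Of 20 tested receptors 11 rose and none fell (13 higher and 1 lower at an unadjusted p under 0.05), against 15.2% higher and 7.34% lower over all tested genes. Of the 11, 8 were under 1 FPKM in every PBS library and met the filter through bleomycin libraries alone. Receptors of B and plasma cells were among them. Tnfrsf13c, the BAFF receptor of mature B cells (chromosome 15, 82221744 to 82224339), measured 9.01, 7.32 and 6.27 FPKM with bleomycin and 0.400, 0.845 and 0.813 FPKM with PBS, a rise of 2.34 ± 0.21 (limma adjusted p = 0.000585). Tnfrsf13b (TACI), which binds BAFF and APRIL, was at 3.76, 3.33 and 1.38 FPKM with bleomycin and at 0, 0.223 and 0.0154 FPKM with PBS (1.77 ± 0.29, adjusted p = 0.00726). Tnfrsf17 (BCMA), the receptor of plasma cells for the same ligands, measured 3.94, 1.64 and 1.85 FPKM with bleomycin and 0.248, 0.161 and 0.280 FPKM with PBS. It rose by 1.44 ± 0.26 (adjusted p = 0.0113, and 0.0515 with quantile normalization). All 3 were under 1 FPKM in every PBS library, while their ligands Tnfsf13 and Tnfsf13b were above 5 FPKM in each of them.

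Among receptors known as costimulators of T cells, Cd27, Tnfrsf18, Tnfrsf4, Tnfrsf25 and Tnfrsf9 passed, Tnfrsf14 and Tnfrsf1b did not pass and Tnfrsf8 was below the filter. Cd27 (ENSMUSG00000030336.14, chromosome 6, 125232622 to 125237010), which sustains activated T cells, had the smallest adjusted p of all members (0.000148), with 9.13, 10.1 and 7.83 FPKM in bleomycin libraries and 0.236, 0.256 and 0.218 FPKM in PBS libraries. Within each group its values were close together, and the change was 3.01 ± 0.17. Cd27, Tnfrsf18 and Tnfrsf4 were under 1 FPKM in every PBS library. These met the filter through bleomycin libraries alone, so they had to be higher. Tnfrsf18 (GITR), high on regulatory T cells, measured 7.22, 9.04 and 4.29 FPKM with bleomycin and 0.562, 0.520 and 0.756 FPKM with PBS, a rise of 2.24 ± 0.26 (limma adjusted p = 0.00187). Tnfrsf4 (OX40), of activated T cells, was at 2.72, 3.15 and 1.50 FPKM with bleomycin and at 0.261, 0 and 0.584 FPKM with PBS. It rose by 1.42 ± 0.27 (adjusted p = 0.0125), and its adjusted p was 0.0524 with quantile normalization. Tnfrsf25, the death receptor DR3 of T cells, measured 4.24, 2.76 and 2.01 FPKM with bleomycin and 1.25, 1.04 and 0.900 FPKM with PBS (0.92 ± 0.24, adjusted p = 0.0367). Tnfrsf9, the costimulator CD137, measured 2.64, 2.29 and 1.36 FPKM with bleomycin and 0.379, 0.412 and 1.15 FPKM with PBS (0.92 ± 0.26, adjusted p = 0.0488). Neither overlapped between the groups, but both calls were lost under other settings, for Tnfrsf25 with its highest transcript alone (0.38, adjusted p = 0.382) and for Tnfrsf9 with quantile normalization (0.51, adjusted p = 0.205). The call of Tnfrsf25 was lost without any PBS library or without bleomycin replicate 1 or 2 (adjusted p 0.0736 to 0.107). That of Tnfrsf9 was lost when replicate 1 or 2 of either group was left out (0.129 to 0.132). Tnfrsf8 (CD30) was below the filter, at 0.557 to 0.800 FPKM with bleomycin and 0.0564, 0 and 0 FPKM with PBS.

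Among the remaining receptors that rose, Tnfrsf21 (death receptor 6) measured 7.03, 8.18 and 9.32 FPKM in bleomycin libraries and 1.97, 2.22 and 1.79 FPKM in PBS libraries. Each library was above 1 FPKM, the groups stood apart, and the rise was 1.61 ± 0.17 (limma adjusted p = 0.00126). Tnfrsf22, a mouse decoy receptor for TRAIL, averaged 1.52 ± 0.314 FPKM with bleomycin and 0.341 ± 0.0806 with PBS (0.91 ± 0.17, adjusted p = 0.0117), and its call was lost with quantile normalization (adjusted p = 0.167). Tnfrsf26, its neighbour, measured 1.96, 1.41 and 5.86 FPKM with bleomycin and 0.170, 0.115 and 0.308 FPKM with PBS. Bleomycin replicate 3 carried the highest value, and the call (1.61 ± 0.39, adjusted p = 0.0297) was lost without any PBS library or without bleomycin replicate 1 (0.0561 to 0.0836).

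None of the 6 receptors with a PBS mean of 5 FPKM or more passed the test. The PBS level used to sort them is part of the fold change, so this is a description. Tnfrsf14, Tnfrsf11a and Tnfrsf11b, with lower PBS means, did not pass either. Tnfrsf1a, the death domain receptor of TNF on most cells, measured 40.6, 32.7 and 26.2 FPKM with bleomycin and 34.1, 33.9 and 33.2 FPKM with PBS (-0.05 ± 0.19, limma adjusted p = 0.887). The bleomycin values lay on either side of the PBS values. Tnfrsf1b, the second TNF receptor, found mostly on leukocytes and endothelium, measured 10.3, 11.1 and 11.1 FPKM with bleomycin and 3.03, 9.24 and 3.32 FPKM with PBS. PBS replicate 2 stood apart from the other PBS libraries, and the change was 1.07 ± 0.37 (adjusted p = 0.0814) with it and 1.50 (adjusted p = 0.00523) without it. The erythroid markers of that library also stood apart (431 FPKM). So did Jun (221, 496 and 210 FPKM in PBS replicates 1, 2 and 3) and Nfkbiz (17.2, 70.6 and 23.0 FPKM), while Rela (14.5, 18.7 and 25.2 FPKM) did not. Any part of these in the value of Tnfrsf1b was not tested. Ltbr, the lymphotoxin beta receptor of epithelium and stroma, measured 23.7, 24.7 and 27.3 FPKM with bleomycin and 45.4, 35.6 and 29.1 FPKM with PBS. Its groups did not overlap, the change was -0.50 ± 0.19 (adjusted p = 0.111), and it passed with equal medians (0.0416). Cd40, a costimulator of antigen-presenting cells, measured 7.22, 7.93 and 8.48 FPKM with bleomycin and 7.47, 6.29 and 9.87 FPKM with PBS (0.02 ± 0.20, adjusted p = 0.962), and its direction turned with the scaling.

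Tnfrsf12a (Fn14), the TWEAK receptor known from injured epithelium, averaged 12.2 ± 4.48 FPKM with bleomycin and 27.5 ± 15.3 with PBS (-1.04 ± 0.44, limma adjusted p = 0.136), without overlap. Tnfrsf19 (TROY) averaged 11.8 ± 5.74 FPKM with bleomycin and 20.9 ± 5.89 with PBS (adjusted p = 0.165). Tnfrsf14, the herpesvirus entry mediator, and Tnfrsf11b, the soluble decoy osteoprotegerin, had higher values in every bleomycin library than in any PBS library and adjusted p of 0.129 and 0.142. Tnfrsf11a (RANK), the receptor of RANKL, stayed between 0.624 and 1.76 FPKM in all libraries. Tnfrsf23, below the filter, was at 0.461 to 0.563 FPKM with bleomycin and at 0.215, 0 and 0.0674 FPKM with PBS.

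The 22 receptors summed to 163, 164 and 152 FPKM in bleomycin replicates 1, 2 and 3 and to 143, 157 and 132 FPKM in PBS replicates 1, 2 and 3, which overlap. The 5 highest in the PBS mean (Ltbr, Tnfrsf1a, Tnfrsf12a, Tnfrsf19 and Cd40) summed to 91.1, 93.3 and 86.3 FPKM with bleomycin and to 128, 137 and 115 FPKM with PBS, lower in every bleomycin library. They held 55.7, 56.8 and 56.9% of the receptor sum with bleomycin and 90.1, 87.2 and 87.5% with PBS. The other 17 receptors summed to 65.5 to 72.4 FPKM with bleomycin and to 14.1 to 20.1 FPKM with PBS, higher in every bleomycin library. The 5 were picked by their PBS level, so these sums and shares are a description.

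No adaptor passed: 0 of 9 in limma, against 22.5% of all tested genes called in either direction. With 9 genes this count does not set the adaptors apart. At an unadjusted p under 0.05, 2 were higher (Ripk1 and Traf6) and 0 lower. Ripk1, the kinase that links TNF receptor 1 to NF-kB and to cell death, measured 10.6, 11.0 and 9.24 FPKM with bleomycin and 5.24, 8.35 and 6.82 FPKM with PBS. It was the one adaptor whose groups did not overlap (0.55 ± 0.20, adjusted p = 0.0947). Ripk1 overlaps Serpinb6a on the opposite strand, and whether reads were assigned by strand is not stated. Traf6, the ubiquitin ligase of Toll-like and interleukin 1 receptor signals, measured 8.28, 5.75 and 7.76 FPKM with bleomycin and 1.92, 5.89 and 3.64 FPKM with PBS (0.85 ± 0.33, adjusted p = 0.116). Traf3, which holds back noncanonical NF-kB, measured 4.08, 4.95 and 5.78 FPKM with bleomycin and 1.41, 2.55 and 4.82 FPKM with PBS (0.68 ± 0.34, adjusted p = 0.194). In both, 1 PBS library lay inside the bleomycin range.

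Traf2, the main TRAF of the TNF receptors, measured 7.53, 5.54 and 6.73 FPKM with bleomycin and 4.48, 5.59 and 4.54 FPKM with PBS (0.37 ± 0.18, limma adjusted p = 0.192). Traf1, the TRAF without a RING finger, measured 9.43, 7.76 and 6.97 FPKM with bleomycin and 7.45, 10.4 and 9.03 FPKM with PBS (-0.14 ± 0.19, adjusted p = 0.65). Tradd, the death domain adaptor of TNF receptor 1, measured 4.29, 4.03 and 4.61 FPKM with bleomycin and 5.46, 3.94 and 5.69 FPKM with PBS (-0.17 ± 0.18, adjusted p = 0.542). All 3 overlapped between the groups. Traf4 measured 6.99, 4.84 and 1.34 FPKM with bleomycin and 3.38, 7.38 and 2.55 FPKM with PBS (-0.08 ± 0.53, adjusted p = 0.928), the widest standard error of the 9 adaptors. Traf7 measured 13.2, 21.0 and 11.4 FPKM with bleomycin and 11.7, 8.28 and 13.5 FPKM with PBS (0.40 ± 0.28, adjusted p = 0.348).

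For Traf5, a relative of Traf2 that also binds lymphocyte receptors, the outcome depended on how transcripts were combined. The gene sum was 5.29, 5.31 and 4.96 FPKM with bleomycin and 5.55, 2.59 and 2.61 FPKM with PBS (0.49 ± 0.27, limma adjusted p = 0.235). In PBS replicate 1 the short transcript Traf5-004 gave 3.84 FPKM of that sum. The other, longer transcript measured 5.12, 5.31 and 4.96 FPKM with bleomycin and 1.71, 1.73 and 2.61 FPKM with PBS, without overlap. With the highest transcript in place of the sum, Traf5 changed by 1.04 (adjusted p = 0.014), and without PBS replicate 1 by 0.78 (adjusted p = 0.0353).

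Of the Tnfaip genes, 6 were tested, 2 rose and 1 fell, against 15.2% higher and 7.34% lower over all tested genes. With 6 genes the count is a description. Tnfaip3, a ubiquitin-editing enzyme that NF-kB induces and that in turn restrains it (ENSMUSG00000019850.11, chromosome 10, 19000910 to 19015410), measured 83.3, 68.2 and 109 FPKM with bleomycin and 3.31, 12.9 and 4.40 FPKM with PBS. It rose by 3.65 ± 0.45 (limma adjusted p = 0.00221) and was the highest member in the bleomycin mean (86.9 ± 20.7 FPKM, SD, n = 3). Its place among the fold changes depended on the pseudocount: with 0.1 FPKM added in place of 1, Tnfaip3 changed by 3.87, against 4.76 for Cd27, 4.20 for Ltb and 4.12 for Tnfrsf13b. The division of this sum among transcripts differed between bleomycin libraries. The transcript Tnfaip3-002 gave 86.0 and 86.6% of the gene's FPKM in bleomycin replicates 1 and 2 and 7.70% in bleomycin replicate 3, where Tnfaip3-001 gave 88.9%. Tnfaip3-001, the longest, gave 72.9, 92.8 and 69.3% in PBS replicates 1, 2 and 3. With the highest transcript in place of the sum the rise was 4.14 ± 0.76 (adjusted p = 0.014).

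**Figure D4:**
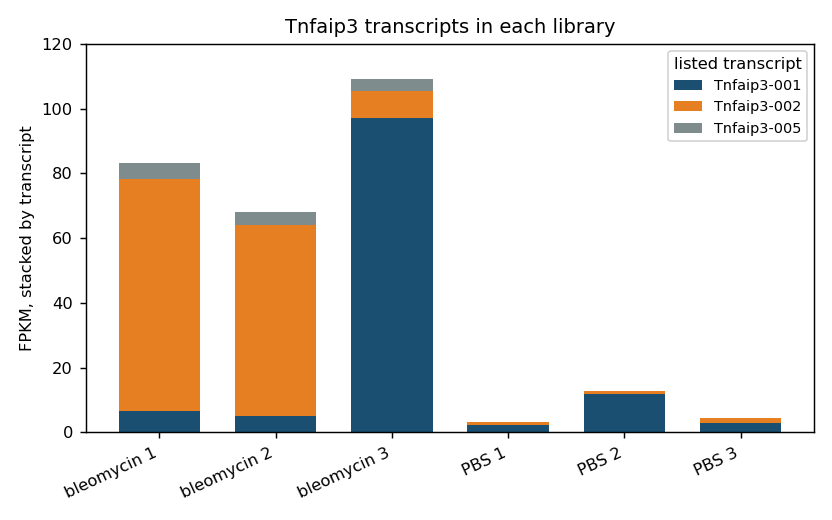
FPKM of the 3 listed Tnfaip3 transcripts (vertical axis, stacked) in each bleomycin library (left) and each PBS library (right). The sums are 83.3, 68.2 and 109 FPKM with bleomycin, and the transcript that fills most of the bar in bleomycin replicates 1 and 2 (Tnfaip3-002) is a small part of it in bleomycin replicate 3.

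Tnfaip8, a regulator of cell survival and lipid signalling on chromosome 18, measured 17.8, 16.9 and 14.3 FPKM with bleomycin and 1.25, 0.766 and 4.89 FPKM with PBS (2.59 ± 0.44, limma adjusted p = 0.00849). Its groups stood far apart, with PBS replicate 3 the highest of the PBS libraries. Tnfaip1, an adaptor of cullin ubiquitin ligases and the highest member in PBS libraries (chromosome 11, 78522850 to 78536332), was the one member that fell. It measured 26.5, 29.8 and 21.3 FPKM with bleomycin and 55.2, 56.3 and 51.8 FPKM with PBS (-1.06 ± 0.17, adjusted p = 0.00612). In the same libraries the AT2 marker Sftpc averaged 4569 ± 1920 FPKM with bleomycin and 16103 ± 3941 with PBS, and whether that shift has a part in the fall of Tnfaip1 was not tested. Tnfaip2, which shapes membrane protrusions, had 13.6, 17.2 and 30.6 FPKM with bleomycin and 7.55, 10.0 and 9.49 FPKM with PBS (1.03 ± 0.30, adjusted p = 0.0542). Its adjusted p was 0.0418 without bleomycin replicate 1. Tnfaip6, a hyaluronan-binding protein of inflamed tissue, had 1.73, 2.55 and 3.50 FPKM with bleomycin and 3.09, 11.0 and 5.55 FPKM with PBS (adjusted p = 0.145). Tnfaip8l2, a brake on immune activation, was at 1.43 to 1.52 FPKM with bleomycin and 0.00540 to 0.976 FPKM with PBS (adjusted p = 0.0753, and 0.045 without PBS replicate 3). Tnfaip8l1 and Tnfaip8l3 were below the filter, with 1 bleomycin library each above 1 FPKM (1.99 and 1.85).

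Many members lie beside each other, and neighbours were compared because the name rule uses no position. Ltb, Tnf and Lta follow one another on chromosome 17 with gaps of 3060 and 1157 bases, and all 3 rose. Tnf and Lta were under 1 FPKM in every PBS library and met the filter through bleomycin libraries alone, so both had to be higher. On chromosome 6, Cd27 and Ltbr are neighbours in the list with 69560 bases between them, and Tnfrsf1a follows 35837 bases further on, past Scnn1a. There the groups of Cd27 stood far apart, at 9.04 ± 1.16 FPKM with bleomycin and 0.237 ± 0.0193 with PBS, while Ltbr and Tnfrsf1a did not pass. Cd27 was under 1 FPKM in every PBS library and met the filter through bleomycin libraries alone, so it could not overlap. On chromosome 4, 9551 bases separate Tnfrsf4 from Tnfrsf18, which both rose, and 20266 bases separate Tnfrsf1b from Tnfrsf8. All 6 tested receptors on this chromosome had higher values in every bleomycin library than in any PBS library, against 27.2% of all tested genes. The 6 are spread along the chromosome, and not all of them are neighbours. Of the 6, 4 passed as higher, against 15.2%. Tnfrsf8, below the filter, did not overlap either. Of these 4 that passed, 2 (Tnfrsf4 and Tnfrsf18) were under 1 FPKM in every PBS library. They met the filter through bleomycin libraries alone, so they could not overlap. On chromosome 7, the mouse receptors Tnfrsf26, Tnfrsf22 and Tnfrsf23 lie within gaps of 6854 and 17952 bases. All 3 were higher without overlap, against 27.2% of all tested genes. Tnfrsf23 was below the filter, and Tnfrsf26 and Tnfrsf22 met it through bleomycin libraries alone, so they could not overlap. On chromosome 11, the overlapping Tnfsfm13, Tnfsf13 and Tnfsf12 all overlapped between groups and none passed. The remaining neighbours were ligands that differed within a pair. Tnfsf15 and Tnfsf8, 86194 bases apart on chromosome 4, were below the filter, and Tnfsf15 overlapped while Tnfsf8 was higher without overlap. On chromosome 17, 81734 bases separate Tnfsf9, which overlapped and did not pass (-0.52), from Tnfsf14, below the filter and higher without overlap.

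**Figure D5:**
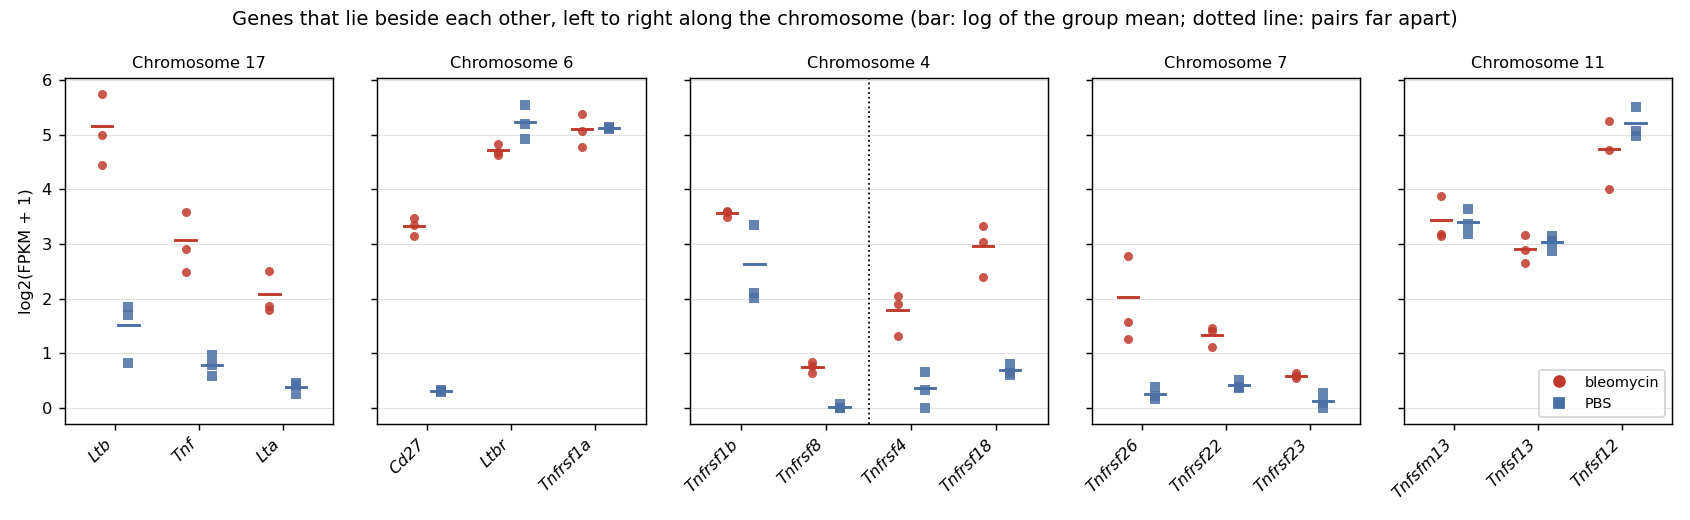
log2(FPKM + 1) (vertical axis) of members that are neighbours on 5 chromosomes, in order along each, with the 3 bleomycin libraries left and the 3 PBS libraries right of each gene and bars at the log of the group mean. Ltb, Tnf and Lta are all higher with bleomycin, while on chromosome 6 Cd27 is higher and Tnfrsf1a (33.2 FPKM with bleomycin and 33.7 with PBS) is level.

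Ligands and receptors of the superfamily with other names numbered 9, of which 6 were tested and 4 rose, against 15.2% of all tested genes. Of the 4, 3 (Fasl, Cd40lg and Relt) were under 1 FPKM in every PBS library. These met the filter through bleomycin libraries alone and had to be higher, so the count is a description. Fasl, the death ligand of cytotoxic lymphocytes, measured 3.10, 2.22 and 2.69 FPKM with bleomycin and 0.0927, 0.246 and 0.199 FPKM with PBS (1.63 ± 0.17, limma adjusted p = 0.00107). Cd40lg, the ligand of CD40 on helper T cells, was at 1.73, 2.10 and 1.33 FPKM with bleomycin and 0.0879, 0.170 and 0 FPKM with PBS (1.32 ± 0.18, adjusted p = 0.00308). Relt, a receptor of leukocytes, measured 6.66, 2.44 and 4.70 FPKM with bleomycin and 0.372, 0.479 and 0.516 FPKM with PBS (1.87 ± 0.30, adjusted p = 0.00676). Fas, the receptor of Fasl, measured 21.2, 26.5 and 20.8 FPKM with bleomycin and 14.3, 13.5 and 16.6 FPKM with PBS (0.59 ± 0.17, adjusted p = 0.0475). Its call was lost when any 1 library was left out (0.0617 to 0.143) and with equal medians (0.117) or quantile normalization (0.0749). Eda, a ligand of skin appendage development, measured 0.761, 1.01 and 1.10 FPKM with bleomycin and 0.906, 0.573 and 1.95 FPKM with PBS (adjusted p = 0.848). Its receptor Eda2r measured 0.304, 1.46 and 1.97 FPKM with bleomycin and 1.19, 0.868 and 1.33 FPKM with PBS (adjusted p = 0.998). Edar, Edaradd and Ngfr were below the filter.

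A list of 48 genes held NF-kB, MAP kinase and death signalling downstream of the receptors, and the protease Adam17, which is not downstream of them. In this list 47 were tested, 14 rose and none fell (23 higher and 0 lower at an unadjusted p under 0.05), against 15.2% higher and 7.34% lower over all tested genes. With equal medians 10 were higher, with quantile normalization 11 and with the highest transcript alone 10. The median log2 fold change of the list was 0.51, against 0.09 over all tested genes. Leaving out a library gave 7 to 12 higher, with 8 without PBS replicate 3 and 7 without bleomycin replicate 1 or bleomycin replicate 2, and 1 gene, Map2k4, was lower without bleomycin replicate 1. Ripk3, the kinase of necroptosis, measured 12.5, 10.1 and 9.64 FPKM with bleomycin and 1.02, 1.18 and 0.842 FPKM with PBS (2.54 ± 0.18, limma adjusted p = 0.000258). Rel, the NF-kB subunit of lymphocytes, measured 44.5, 29.9 and 31.7 FPKM with bleomycin and 1.50, 4.18 and 2.66 FPKM with PBS (3.31 ± 0.30, adjusted p = 0.000673). Casp8, the caspase that death receptors activate, measured 27.9, 23.8 and 22.6 FPKM with bleomycin and 6.85, 7.48 and 7.54 FPKM with PBS (1.63 ± 0.15, adjusted p = 0.000675). Nfkbie, an NF-kB inhibitor, measured 8.49, 4.72 and 7.49 FPKM with bleomycin and 1.72, 0.888 and 1.36 FPKM with PBS (1.75 ± 0.26, adjusted p = 0.00456). These 4 passed under every alternative that tested them. The other 10 that rose, by 0.50 to 2.00, were the NF-kB subunits Nfkb1 and Nfkb2, the inhibitor Nfkbia, the kinases Map3k8, Map3k14, Ikbke and Tbk1, the ubiquitin ligase components Birc3 and Rbck1, and the deubiquitinase Cyld. Of these, Birc3 and Tbk1 lost their calls whichever 1 library was left out, Rbck1 and Map3k14 in 5 of the 6 such fits, Nfkb2 in 4, and Nfkb1 and Nfkbia in 3. In the whole list 6 of the 14 calls held under every alternative. The genes with the smallest adjusted p among those with a negative change, Map2k4 (-0.46), Jun (-0.13), Tnip2 (-0.05) and Ube2l3 (-0.08), had adjusted p of 0.267 to 0.885. The pan-leukocyte marker Ptprc measured 249, 123 and 107 FPKM with bleomycin and 0.0706, 3.81 and 4.85 FPKM with PBS in the same libraries. Pecam1, of endothelium, measured 56.0, 93.9 and 49.2 FPKM with bleomycin and 5.73, 5.03 and 6.23 FPKM with PBS, and Col1a1, of fibroblasts, 30.8, 76.3 and 131 FPKM with bleomycin and 318, 267 and 242 FPKM with PBS. Epcam, of epithelium, measured 31.6, 26.6 and 12.9 FPKM with bleomycin and 52.7, 48.1 and 41.6 FPKM with PBS (limma adjusted p = 0.0634). Their part in these rises was not tested.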

How the data were processed

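RNA was extracted with TRIzol and made into libraries with the KAPA stranded kit, per the labels' protocols, giving 3 libraries from 3 bleomycin mice and 3 from 3 PBS mice. HISAT2, StringTie and FastQC 0.10.1 are named with the build mm10, per the submitters' processing notes, and the sources used here give no annotation, settings or strand use. FPKM values were deposited by the authors for the same 24647 transcripts in each library, per the file headers, with sums of 253146 to 300697. Whole reads could not be recovered: at most 18.1% of low values in genes with 1 transcript fell within 0.05 of a common step. Depth and counting error are therefore unknown.

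Transcripts were summed by gene ID. The 12326 genes that reached 1 FPKM in 3 of 6 libraries were tested on log2(FPKM + 1), which understates the change of low genes, with limma 3.58.1 in R 4.3.3 (eBayes, trend on, no covariate) and Benjamini-Hochberg adjustment over all of them at 0.05. An exact permutation test of 3 against 3 cannot go below 0.10, so every p comes from limma, checked on simulated data. The members and lists were chosen with earlier results of these data known. Full statistics are given for Tnf, Lta, Ltb, their receptors, Cd40, Cd27, the adaptors, Tnfaip3, any member that fell and the 3 highest in the mean. The same holds for the 12 members with the smallest adjusted p among those higher without overlap. It also holds for the 4 signalling genes that rose with the smallest adjusted p, and for Fas, Fasl, Cd40lg and Relt. For Eda and Eda2r the fold change and SE are left out. The 4 signalling genes with a negative change have a fold change and a shared range of adjusted p. Values of other members were added after they were seen. Alternatives covered the pseudocount, the filter, scaling, transcript choice, variance model, library weights, a replicate block and each library left out.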

Additional observations from a re-analysis of the deposited data

How the results depend on the processing

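Of the 19 members that passed, 12 passed under every alternative that tested them and 15 without any 1 library, and no direction of a called gene reversed. Tnfsf10, Tnfrsf9, Tnfrsf25 and Tnfrsf26 lost their calls without some libraries, and Tnfrsf4, Tnfrsf17 and Tnfrsf22 with quantile normalization, Tnfrsf4 also with the replicate block (adjusted p = 0.0521). With a filter at 5 FPKM, 25 members were tested, 6 were higher and 1 was lower. Of all 8325 genes tested with that filter, 1286 were higher and 720 lower. The number of members lower was 3 with equal medians, 2 with quantile normalization, 2 with library weights and 2 with the replicate block, against 1. Over all genes, 1412 were lower with equal medians and 1441 with quantile normalization, against 905, and 457 to 873 with 1 library left out (873 without bleomycin replicate 3, at most 514 without each other library). The signalling list had 7 to 12 genes higher and 0 to 1 lower without any 1 library. The cause of these shifts was not tested. Same-numbered libraries of the groups deviated together with r of -0.00431, 0.0172 and 0.0391 across genes, so the replicate numbers were not taken as pairs. The fit with the replicate block called 563 genes lower and 1359 higher, 15 members higher and 2 lower, Tnfaip1 and Tnfrsf12a (the second at -1.04, adjusted p = 0.0446), and 10 genes of the signalling list higher. Low members rest on few FPKM whose counting error is unknown.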
